A study of Mus musculus with 16 samples.

Results

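The prostanoid receptors are the cell surface proteins through which prostaglandins and thromboxane act on a cell. Their transcripts were taken by gene symbol from the deposited table of normalised counts: Ptger1, Ptger2, Ptger3, Ptger4, Ptgdr, Ptgdr2, Ptgir and Tbxa2r, which are 8 of the 19540 genes listed there. The series asked what happens in visceral adipose tissue (VAT) when regulatory T cells (Treg, helper-lineage T cells that make Foxp3 and hold immune responses in check) lose Hpgd, which encodes the enzyme that breaks down prostaglandin E2. RNA from 16 samples of sorted T cells was sequenced, from mice 12 weeks old of the C57BL/6JRcc strain. Treg KO (4 libraries) were Treg of mice of the line Hpgd fl; Foxp3-YFP-Cre, in which Cre recombinase is made under Foxp3, so that the gene is removed in Foxp3-expressing cells. Treg WT (3 libraries) were Treg called wild type in the titles. Tconv KO (5 libraries) were conventional T cells of the mice with the Treg deletion, cells in which this Cre is not expected to be made, and Tconv WT (4 libraries) were conventional T cells called wild type. The line label is the same for all 16 samples, so the genotype rests on the titles, and the sources used here do not say whether the wild-type mice carried Cre. The series design gives 5 deleted and 4 wild-type animals, but no label ties a library to an animal, so p-values measure the spread between these libraries. No source used here names the sort markers.

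Prostanoids are short-lived lipids made from arachidonic acid by cyclooxygenases and then by a synthase for each kind, and each receptor answers mainly to 1 of them. The receptors for prostaglandin E2 are Ptger1 to Ptger4 (the EP receptors), those for prostaglandin D2 are Ptgdr and Ptgdr2, Ptgir is the receptor for prostacyclin and Tbxa2r the receptor for thromboxane. Ptger2, Ptger4, Ptgdr and Ptgir couple to the stimulatory G protein Gs and raise cyclic AMP, which restrains T cell activation; Ptger3 and Ptgdr2 couple to the inhibitory Gi; and Ptger1 and Tbxa2r act mainly through Gq and calcium. Hpgd removes the E-type ligand, not the receptors, so these transcripts describe which receptors each cell population carried the message for.

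Ptger4 and Ptgir were the members that passed a test in some comparison, in opposite directions, and Ptger2 is the other cAMP-raising receptor for prostaglandin E2. For that reason the 250 bases before the annotated start of these 3 genes are shown, read 5′ to 3′ on the strand of the gene, from RefSeq on GRCm38.p6. They lie at chr15:5244188-5244437 on the minus strand, chr7:16906240-16906489 on the plus strand and chr14:44987861-44988110 on the plus strand, in that order. Capitals mark a GC box (GGGCGG, or CCGCCC on the other strand) or a CCAAT box (CCAAT, or ATTGG on the other strand).
Ptger4: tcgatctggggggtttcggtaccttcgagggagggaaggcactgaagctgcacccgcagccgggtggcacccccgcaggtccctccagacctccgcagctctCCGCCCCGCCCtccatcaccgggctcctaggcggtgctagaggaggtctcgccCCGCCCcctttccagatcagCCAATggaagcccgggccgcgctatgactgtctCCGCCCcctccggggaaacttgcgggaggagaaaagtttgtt
Ptgir: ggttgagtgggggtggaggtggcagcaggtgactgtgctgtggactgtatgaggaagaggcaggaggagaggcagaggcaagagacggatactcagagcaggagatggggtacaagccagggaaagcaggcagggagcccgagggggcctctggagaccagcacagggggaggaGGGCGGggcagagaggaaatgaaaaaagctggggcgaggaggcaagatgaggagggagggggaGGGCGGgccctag
Ptger2: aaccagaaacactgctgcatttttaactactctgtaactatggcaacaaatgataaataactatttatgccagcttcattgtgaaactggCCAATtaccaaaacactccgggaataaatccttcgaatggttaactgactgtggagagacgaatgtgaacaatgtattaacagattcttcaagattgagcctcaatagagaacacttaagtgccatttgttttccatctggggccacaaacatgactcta

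The Ptger4 window was rich in G and C (66.8%), with 19 CpG pairs, 4 GC boxes, 2 of which overlap, and 1 CCAAT box. The Ptgir window was 63.6% G and C but held 5 CpG pairs and 2 GC boxes. The Ptger2 window was 38% G and C, with 3 CpG pairs, no GC box and 1 CCAAT box, and 8.47% of all 32851 mouse promoters in the same table had a lower G and C content. A GC box was in 32.7% of those promoters and a CCAAT box in 33.8%. The other motifs searched on both strands were the cyclic AMP response element TGACGTCA (in 1.55% of promoters), its core TGACG (17.8%, which every full element also contains), TATAAA (12.4%) and AGATAA (9.99%), and none of these letters stood in the 3 windows shown. The table held promoters for 7 of the 8 members and 2 starts for Tbxa2r. Ptgdr and Ptger2 are neighbours on chromosome 14, with 128819 bases and no annotated protein-coding gene between them.

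The libraries held 3390220 to 9262221 reads, except Tconv KO 3 with 56653889 reads. A deposited value is the read count divided by the library's size factor, plus 1, so a gene without reads reads 1, and 3 reads (the floor used here) are worth 1.38 to 7.09. Foxp3 stood at 279 to 546 in Treg KO and 292 to 616 in Treg WT, against 1 to 4.99 in Tconv KO and 1 to 39.3 in Tconv WT. Hpgd stood at 1 to 3.41 in Treg KO libraries and at 73.1, 56.0 and 4.31 in Treg WT 1, 2 and 3, so the library labelled Treg WT 3 was near the deleted ones. Tconv WT 1 held neutrophil transcripts (S100a8 at 10195) and Tconv WT 3 red cell transcripts (the haemoglobin chain Hba.a2 at 112366). Tests were made with limma on log2 of the deposited value plus 1 in the 14319 genes that reached 10 in 3 or more libraries, with Benjamini-Hochberg adjustment over all of them, and the threshold was an adjusted p of 0.05. On that scale, log2 differences of genes with few reads come out too small. Ptger1, Ptger2, Ptger4, Ptgir and Tbxa2r were tested this way. Ptger3, Ptgdr and Ptgdr2 did not reach the filter and were compared by exact 2-sided permutation tests, whose smallest possible p is 0.0571 where 3 libraries meet 4 and 0.0159 where 4 meet 5.

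**Figure D1:**
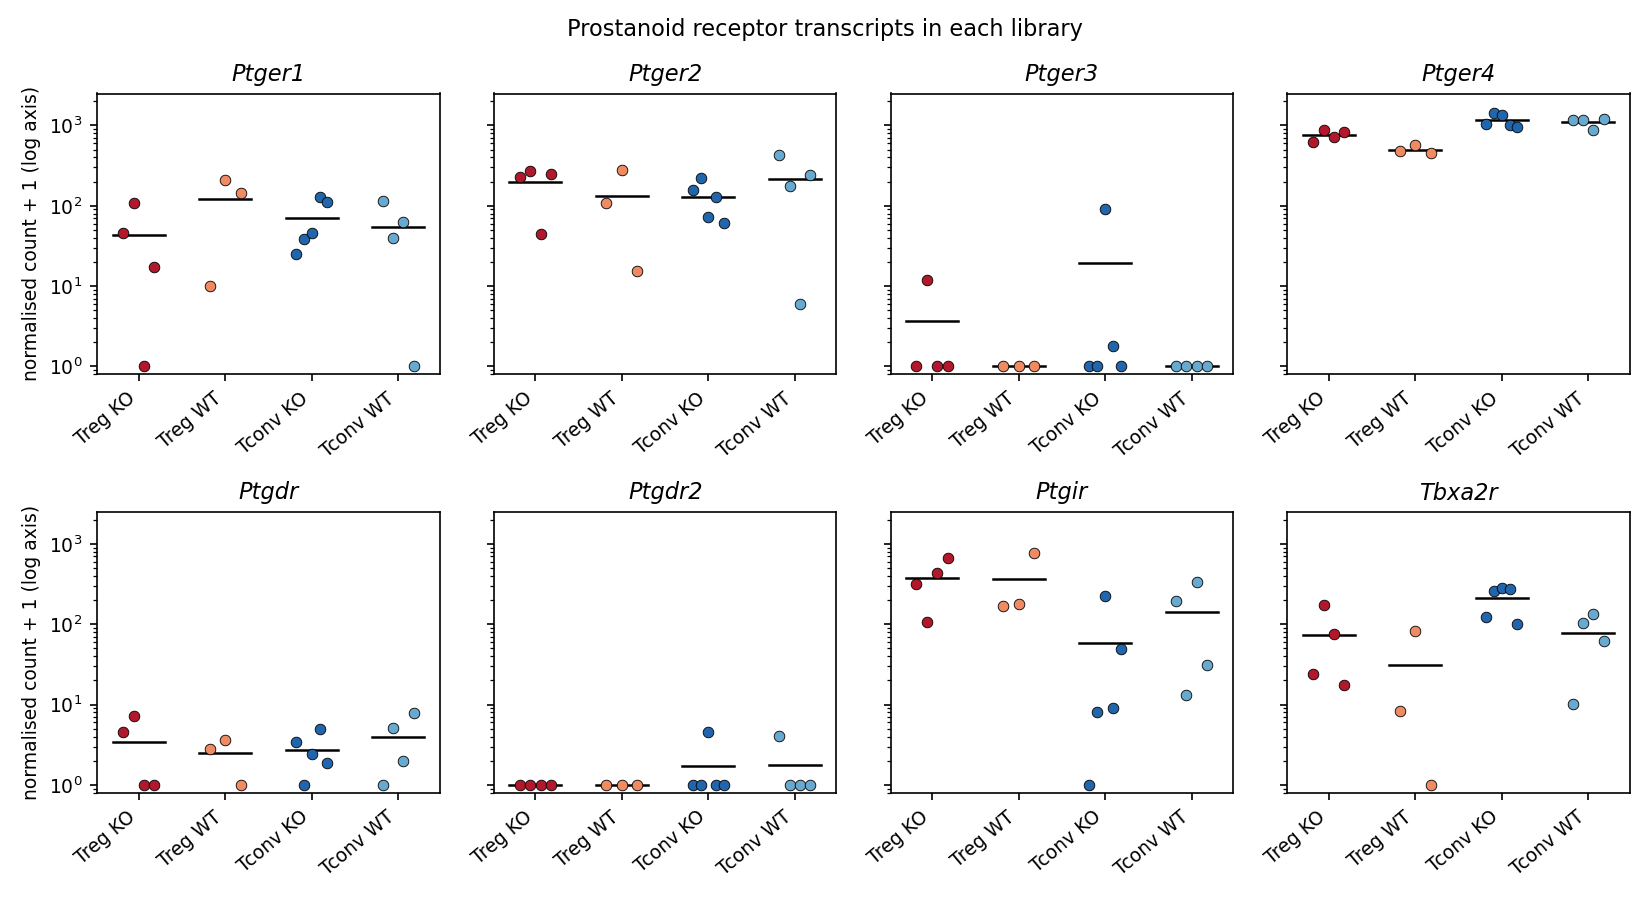
Deposited value (normalised count + 1, log axis) of each of the 8 receptors, 1 point per library and a line at the group mean, with 1 meaning no reads. Ptger4 sits high and tight in all 4 groups, at 449 to 1428, while Ptgir, Ptger2, Ptger1 and Tbxa2r each run from 6.03 or less to over 200 and Ptgdr and Ptgdr2 stay under 10.

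Ptger4, the EP4 receptor, was the receptor transcript with the most reads and, of the 5 tested, the least variable one. In Treg KO it stood at 621, 879.8, 720.3 and 822, and in Treg WT at 488, 564 and 449. In Tconv KO it stood at 1035, 1428, 1355, 1014 and 945, and in Tconv WT at 1173.5, 1162, 884 and 1197. Every Tconv library was above every Treg library, and every Treg KO library was above every Treg WT library, while Tconv KO and Tconv WT overlapped. It rested on 406 to 10682 reads per library. Its within-group SD on the log2 scale was 0.23, against a median of 0.36 in 2661 genes of like level.

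Ptger4 was lower in Treg than in Tconv of wild-type mice, at 500.0 ± 58.5 in Treg WT and 1104 ± 148 in Tconv WT (SD, n = 3 and 4). The log2 difference was -1.14 (SE 0.22, 95% interval -1.59 to -0.68), with an adjusted p of 0.00411 by limma, and all 3 Treg WT libraries were below all 4 Tconv WT libraries. This was 1 of the 5 tested receptors past the threshold in that comparison, where 4.18% of all tested genes passed and groups did not overlap for 12% of genes. The adjusted p stayed between 0.00247 and 0.0392 in every alternative run, including 0.0266 without the library labelled Treg WT 3. In the deleted mice Ptger4 averaged 761 ± 114 in Treg KO and 1155.5 ± 219.6 in Tconv KO (SD, n = 4 and 5), a log2 difference of -0.59 (SE 0.19, 95% interval -0.99 to -0.20) that missed the threshold, with an adjusted p of 0.0684 by limma. Limma's voom on the recovered reads gave -0.65 and an adjusted p of 0.0495 for the same comparison; voom called 7.17% of tested genes there and 2.01% in wild-type mice. In bulk RNA, fewer cells carrying a transcript and less of it per cell cannot be told apart, here and in the results that follow.

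Between Treg KO and Treg WT, Ptger4 was 1.51-fold higher on the log2 scale (0.60, SE 0.22, 95% interval 0.15 to 1.05), in 4 of 4 Treg KO libraries, but with an adjusted p of 0.741 by limma (unadjusted 0.0122) this did not pass. None of the 5 tested receptors passed in that comparison, by limma or by voom, and in both models Ptger4 was the 1 with an unadjusted p under 0.05. Over all tested genes, 0.021% passed by limma and 0% by voom, 6.22% had an unadjusted p under 0.05 and 6.01% had groups that did not overlap. Without the library labelled Treg WT 3 the difference was 0.52, with an adjusted p of 0.765. In Tconv KO against Tconv WT, Ptger4 differed by 0.06 (95% interval -0.34 to 0.45), where groups did not overlap for 1.67% of genes. The difference between both effects was 0.54 (95% interval -0.06 to 1.14, adjusted p 0.928 by limma), so a different response in Treg was not shown. For that difference none of the 5 receptors passed by limma or voom, against 0% of all tested genes, and none had an unadjusted p under 0.05 by limma, against 5.22%. The Treg WT libraries enter both the comparison with Treg KO and that with Tconv WT, so these are not separate pieces of evidence.

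Ptgir, the prostacyclin receptor, had the widest range of the 8 as a ratio of highest to lowest value. In Treg KO it stood at 314, 107, 433 and 671, and in Treg WT at 168, 179 and 766. In Tconv KO it stood at 1 (no reads), 8.01, 223, 8.98 and 49.0, and in Tconv WT at 194, 13.2, 333 and 31.4. All 7 Treg libraries were above 100, while 6 of the 9 Tconv libraries were under 50 and the other 3 lay within the Treg range. Its within-group log2 SD was 2.00, larger than that of 98.8% of 4327 genes of like level.

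Ptgir was higher in Treg KO than in Tconv KO, with means of 381 ± 236 in Treg KO and 58.0 ± 94.1 in Tconv KO (SD, n = 4 and 5). The log2 difference was 4.11 (SE 1.12, 95% interval 1.78 to 6.45), a 17.3-fold ratio on that scale, with an adjusted p of 0.0280 by limma, although the groups overlapped through Tconv KO 3. It was 1 of 5 tested receptors past the threshold, where 6.81% of tested genes passed and groups did not overlap for 10.7%. The call was not stable. Its adjusted p was 0.109 by voom (log2 difference 3.39), and 0.0649, 0.0854 and 0.0987 without Treg KO 1, 3 or 4 in turn. It was 0.0766, 0.0660 and 0.0634 without Tconv KO 1, 2 or 4, and 0.00356 without Tconv KO 3 (log2 difference 5.02). In wild-type mice Ptgir averaged 371 ± 342 in Treg WT and 143 ± 151 in Tconv WT (SD, n = 3 and 4), a log2 difference of 1.95 (95% interval -0.705 to 4.604, adjusted p 0.497 by limma).

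The deletion was not accompanied by a detected change of Ptgir in either cell type. Treg KO and Treg WT differed by 0.14 (95% interval -2.51 to 2.80) and Tconv KO and Tconv WT by -2.02 (95% interval -4.35 to 0.31, adjusted p 0.931 by limma). The intervals are wide enough to hold changes of more than 4-fold in either cell type, so the absence of a call does not show that levels were alike. In Tconv KO against Tconv WT none of the 5 tested receptors passed by limma or voom, where 0% of tested genes passed by either. In the limma model none had an unadjusted p under 0.05 either, against 5.45% of tested genes; by voom Tbxa2r did (0.0191, adjusted p 0.458), and with the replicate number as a block in limma so did Tbxa2r (0.0382) and Ptgir (0.0205), both with an adjusted p of 0.913.

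The 3 Tconv libraries with high Ptgir were also the 3 with the highest values of the type 2 genes Il5, Il1rl1 and Gata3. Tconv KO 3, Tconv WT 3 and Tconv WT 1, with Ptgir at 223, 333 and 194, had Il5 (the eosinophil growth factor) at 940.4, 426 and 599.7. They had Il1rl1 (the receptor for interleukin 33) at 2548, 1746 and 1566, and Gata3 (the type 2 master regulator) at 5155, 3874 and 4051. In the other 6 Tconv libraries Ptgir was 1 to 49.0, Il5 1 to 52.4, Il1rl1 25.4 to 201 and Gata3 1794 to 2590.2. Areg and Il4 were also highest in those 3 libraries, but the type 2 markers Il9r, Il17rb and Il13 were not. Il9r was 142 in Tconv KO 1, which had no Ptgir reads, against 136 in Tconv KO 3 and 133 in Tconv WT 1. Il17rb was 33.8 in Tconv KO 1 and 26.2 in Tconv WT 3, and Il13 had no reads in Tconv WT 3. Treg libraries had Gata3 at 7428 to 19432, and Treg WT 2, with Ptgir at 179, had the lowest Gata3 and Il1rl1 (1725) among them. Hpgds, the blood cell synthase of prostaglandin D2, ran the other way within Tconv, at 10.0, 8.04 and 15.5 in those 3 libraries and 22.9 to 75.3 in the other 6. This was noticed in the data, and its part in the Ptgir result was not tested. Without these 3 libraries the difference between Treg KO and Tconv KO, which loses Tconv KO 3, was 5.02 with an adjusted p of 0.00125 by limma. That between Treg WT and Tconv WT, which loses the other 2, was 3.74 and still missed the threshold (adjusted p 0.0768). Since these 3 libraries had the highest Ptgir among Tconv, leaving them out had to raise both differences. These fits therefore do not bear on the type 2 genes.

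**Figure D2:**
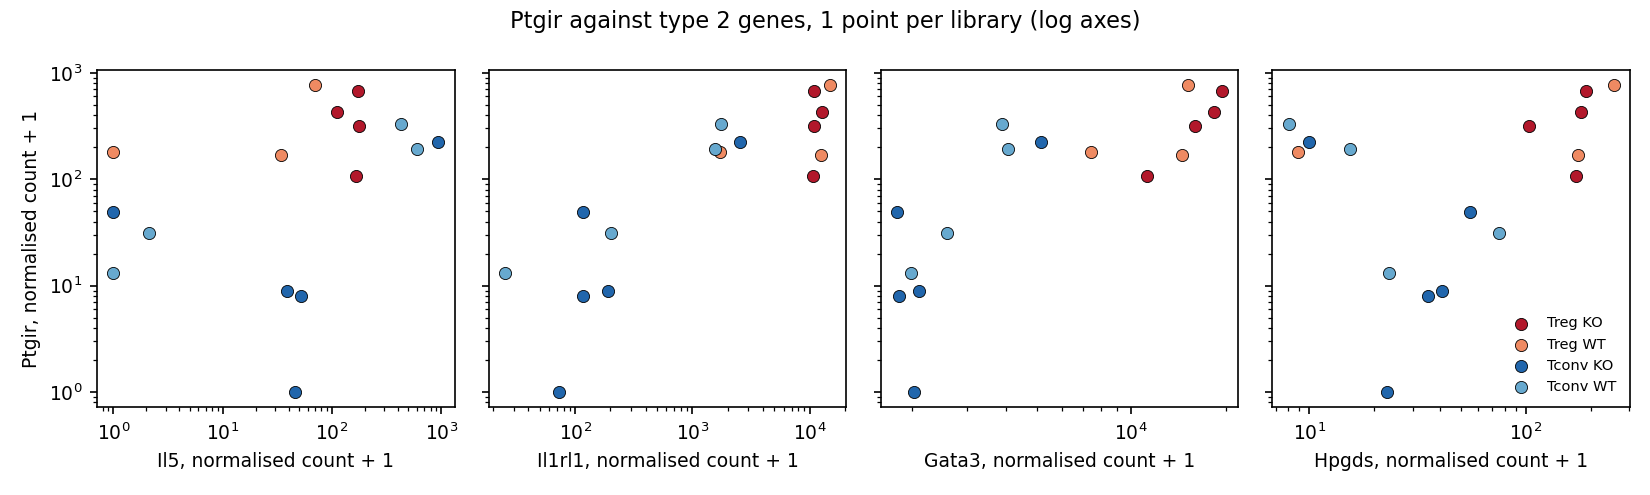
Ptgir (vertical, normalised count + 1) against Il5, Il1rl1, Gata3 and Hpgds (horizontal, normalised count + 1), 1 point per library, all axes on a log scale, coloured by group. Among the 9 Tconv points, the 3 with Ptgir at 194 or more lie at the highest Il5, Il1rl1 and Gata3 values and at the lowest Hpgds values.

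The 3 genes whose log2 values followed Ptgir most closely over the 16 libraries were Mtcl1 (Pearson r = 0.92), Ccr8 (r = 0.92) and Uap1 (r = 0.91), and Bin2 ran most against it (r = -0.84), among 9151 genes with a mean of at least 50. Ccr8, a chemokine receptor found on tissue Treg and type 2 T cells, averaged 2035 ± 748 in Treg KO, 2097 ± 654 in Treg WT, 737 ± 608 in Tconv KO and 1253 ± 621 in Tconv WT. With the group means removed, its r with Ptgir was 0.83, so the likeness was not only that between Treg and Tconv. For Ptger4 the closest were Themis (0.89), Dzip1 (0.89) and Ppm1k (0.89), with Lyrm4 at the other end (-0.89), but with the group means removed those of the first 3 were 0.25, 0.13 and 0.20. All libraries share 1 library protocol and the contrast between Treg and Tconv, and these values were picked as the extremes of many, so they are a description.

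Ptger2, the EP2 receptor, varied by library more than by group. It stood at 225, 271, 44.9 and 251 in Treg KO, and at 108, 278 and 15.3 in Treg WT. In Tconv KO it stood at 158, 222, 73.2, 127 and 60.5, and in Tconv WT at 427, 178, 6.03 and 241. All 4 groups overlapped. Treg KO averaged 198 ± 104 and Treg WT 134 ± 133, a log2 difference of 1.05 (95% interval -1.29 to 3.38), whose sign turned without the library labelled Treg WT 3 (-0.094). Tconv KO averaged 128 ± 65.6 and Tconv WT 213 ± 174, with a log2 difference of 0.12 (95% interval -1.94 to 2.17), opposite in sign to the difference of the means because 1 Tconv WT library was at 6.03. Neither of the comparisons between cell types passed (0.50 in deleted mice, adjusted p 0.862 by limma; -0.43 in wild-type mice, adjusted p 0.909). Over the libraries with group means removed, Ptger2 had a Pearson r of 0.59 with Ptger4 and -0.50 with Ptgir (n = 16). Its closest genes were Fam58b, Pxk and Dctpp1 (r = 0.85, 0.84 and 0.83), and Prkdc was the most opposed (r = -0.83).

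Ptgdr, the Gs-coupled prostaglandin D2 receptor, was near or under the floor everywhere, with 0 to 11 reads in any library and a highest value of 7.75, in Tconv WT 4. It averaged 3.44 ± 3.00 in Treg KO, 2.48 ± 1.34 in Treg WT, 2.74 ± 1.53 in Tconv KO and 3.96 ± 3.07 in Tconv WT (SD, n = 4, 3, 5 and 4). The exact permutation p was 0.603 or more in each of the 4 comparisons between groups. Differences at this level were not detectable at this depth.

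Both Gi-coupled receptors were seen in a few libraries. Ptger3, the EP3 receptor, had 714 reads in Tconv KO 3 (a value of 91.5), 7 reads in Treg KO 2 (11.8) and 1 read in Tconv KO 4, and none in the other 13 libraries. Ptgdr2, the D2 receptor that draws type 2 cells and eosinophils along a gradient (CRTH2), had 28 reads in Tconv KO 3 (4.55) and 3 reads in Tconv WT 1 (4.10), and none in the other 14. Tconv KO 3 is the deepest library, but its Ptger3 value of 91.5 is far above the floor of 3.34 to 4.65 in the other 4 Tconv KO libraries. Both libraries with Ptgdr2 reads were among the 3 Tconv libraries with high Il5. Tconv WT 1 also held the eosinophil transcripts Ear1 (231) and Prg2 (78.5), with Ear2 at 2.03 and no reads of Siglecf or Epx. Tconv KO 3 had no reads of Ear1 or Prg2. Which cells gave the Ptgdr2 reads was not tested. No Treg library had a Ptgdr2 read, which allows values up to 3.62 to 5.61. The exact permutation p was 0.556 or more for both genes in all 4 comparisons between groups. The receptor for prostaglandin F, Ptgfr, which is outside the 8, had 146 reads in Tconv KO 3, 11 in Tconv WT 2 and at most 6 elsewhere.

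Tbxa2r, the thromboxane receptor, was the Gq-coupled member with the larger differences between groups. It stood at 23.9, 175, 76.0 and 17.5 in Treg KO and at 8.30, 83.0 and 1 (no reads) in Treg WT. In Tconv KO it stood at 123, 261, 284, 279 and 101, and in Tconv WT at 10.3, 102, 136 and 61.8. The Tconv KO libraries were the highest as a group, at 209.5 ± 89.8, against 77.6 ± 54.1 in Tconv WT, and Treg KO averaged 73.0 ± 72.6 against 30.8 ± 45.4 in Treg WT (SD). The groups overlapped in each of the 4 comparisons and none of these passed. The log2 differences were 2.11 for Treg KO against Treg WT (95% interval -0.16 to 4.37, adjusted p 0.821 by limma) and 1.77 for Tconv KO against Tconv WT (-0.22 to 3.76, adjusted p 0.931). With 1 library left out, the first ran from 0.84 (without the library labelled Treg WT 3) to 3.53 (without Treg WT 2), and the second was at its lowest 1.00. Their difference was 0.33 (95% interval -2.68 to 3.35).

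Between cell types Tbxa2r differed by -1.95 in Treg KO against Tconv KO (95% interval -3.94 to 0.05, adjusted p 0.282 by limma) and by -2.28 in Treg WT against Tconv WT (-4.55 to -0.01, adjusted p 0.302, unadjusted 0.0489). With 1 library left out, the wild-type difference ran from -3.71 (without Treg WT 2, adjusted p 0.0471 by limma) to -1.01 (without the library labelled Treg WT 3). The adjusted p over these fits ran up to 0.759. At an unadjusted p under 0.05 stood 2 of the 5 tested receptors in each of the comparisons between cell types, where the share over all tested genes was 18.7% in deleted and 16.3% in wild-type mice. Platelets also carry Tbxa2r. The list of 7 platelet and red cell markers measured summed to 50.6 to 1354 in Treg KO, 46.6 to 114 in Treg WT, 63.0 to 207 in Tconv KO and 140 to 158950 in Tconv WT. The highest sum, in Tconv WT 3, was nearly all haemoglobin. Its platelet genes Pf4, Ppbp, Gp9 and Itga2b stood at 35.2, 12.1, 1 (no reads) and 3.01, with Tbxa2r at 136. In Tconv WT 1 they stood at 24.8, 174, 27.9 and 75.4, with Tbxa2r at 10.3, the lowest of the Tconv libraries. These 2 libraries are examples, and the part of platelet transcripts in the Tbxa2r levels was not tested. The genes closest to Tbxa2r were Add3, Cracr2a and Snx10 (r = 0.85, 0.83 and 0.82), with Anks6 the most opposed (r = -0.82).

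Ptger1, the EP1 receptor, stood at 45.6, 109, 1 and 17.5 in Treg KO and at 10.1, 211 and 143 in Treg WT. In Tconv KO it stood at 25.3, 38.4, 46.2, 130.2 and 110.3, and in Tconv WT at 114, 39.6, 63.4 and 1. No comparison passed, with log2 differences of -1.74 in Treg KO against Treg WT (95% interval -4.65 to 1.16), 1.08 in Tconv KO against Tconv WT (-1.46 to 3.63), -1.50 in Treg KO against Tconv KO (-4.05 to 1.05) and 1.33 in Treg WT against Tconv WT (-1.57 to 4.23). The library protocol does not mark strand, so reads from exons that overlap a gene on the other strand cannot be assigned with certainty. In the GENCODE annotation this touches 39.0% of the exon bases of Ptgdr2 (Ccdc86), 22.1% of Ptgdr, 16.5% of Ptger4 (Ttc33 and Gm15937) and 4.74% of Ptger2, and none of Ptger3, Ptgir or Tbxa2r. Ttc33 averaged 182 ± 38.2 in Treg KO, 126 ± 110 in Treg WT, 230 ± 55.5 in Tconv KO and 218 ± 99.9 in Tconv WT (SD). Its Pearson r with Ptger4 over all libraries was 0.46, and its part in the Ptger4 values was not tested. The genes closest to Ptger1 were Rab9, Tmem81 and Txndc16 (r = 0.89, 0.83 and 0.82), with Ovca2 the most opposed (r = -0.81).

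**Figure D3:**
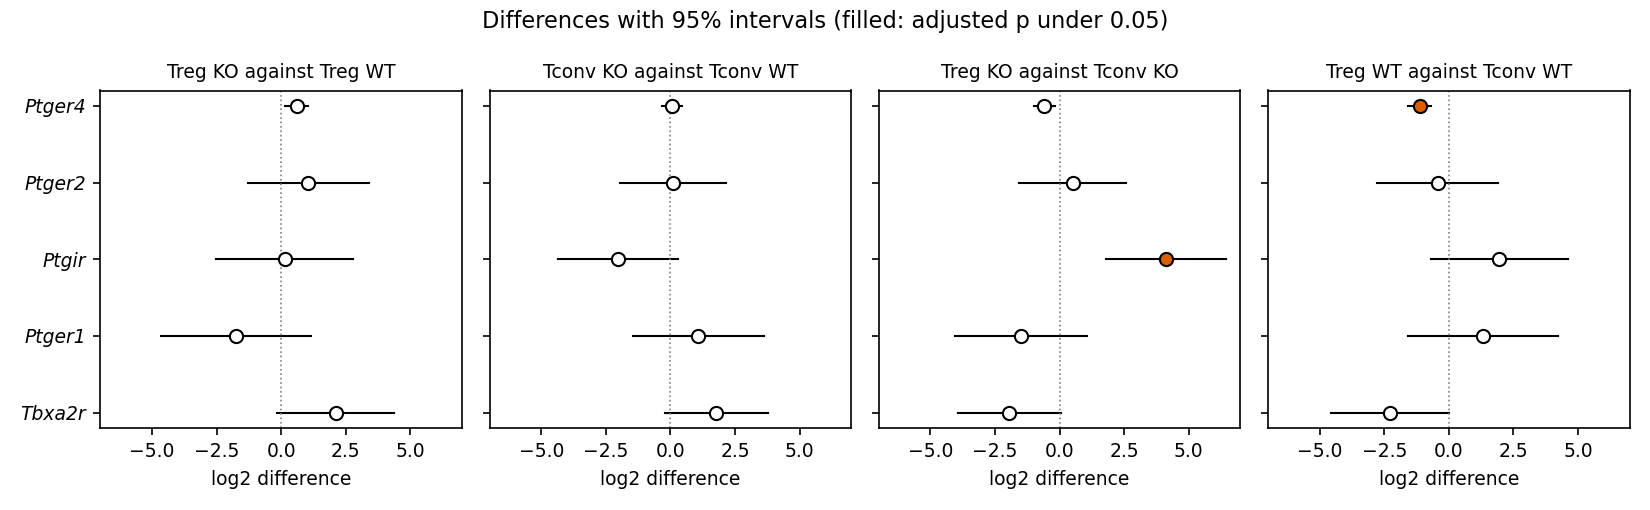
Log2 differences (log2 of deposited value + 1) of the 5 tested receptors in 4 comparisons, with 95% intervals from limma. Filled points passed at an adjusted p under 0.05: Ptgir in Treg KO against Tconv KO (4.11) and Ptger4 in Treg WT against Tconv WT (-1.14). The Ptger4 intervals are narrow and those of the other 4 receptors span several log2 units.

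To compare the receptors with each other, normalised counts were divided by the length of the merged exons in kb. In Treg, Ptger4 and Ptgir had the highest means, with 114 ± 17.2 and 114 ± 70.7 per kb in Treg KO and 75.1 ± 8.80 and 111 ± 103 per kb in Treg WT. The Treg WT mean of Ptgir rests on the library labelled Treg WT 3; with that library left out, Ptgir averaged 51.7 per kb and Ptger4 78.9. Ptger4 was the highest receptor in 1 of 4 Treg KO and 2 of 3 Treg WT libraries. In Tconv, Ptger4 came first, with 174 ± 33.0 per kb in Tconv KO and 166 ± 22.2 per kb in Tconv WT, and was the highest receptor in 5 of 5 and 4 of 4 libraries. Tbxa2r followed in Tconv KO with 109 ± 46.8 per kb, and in Tconv WT Ptgir (42.6 ± 45.2), Ptger2 (40.8 ± 33.5) and Tbxa2r (39.9 ± 28.2) were within their spread of each other; without Tconv WT 3, Ptgir there averaged 23.6 per kb. With the longest transcript as the length, Ptger4 came first in all 4 groups by its mean, at 201 per kb in Treg KO, 132 in Treg WT, 306 in Tconv KO and 292 in Tconv WT.

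As a share of the summed receptor level per kb, Ptger4 made up 36.8% ± 3.35 in Treg KO, 33.5% ± 14.2 in Treg WT, 52.4% ± 8.06 in Tconv KO and 56.1% ± 11.5 in Tconv WT (SD). Ptgir made up 36.2% ± 18.7 in Treg KO, 41.1% ± 26.3 in Treg WT, 4.35% ± 6.20 in Tconv KO and 13.3% ± 14.01 in Tconv WT. Single libraries weighed on these means: the Ptgir share averaged 26.5% when the library labelled Treg WT 3 was left out, 1.798% in Tconv KO without Tconv KO 3 and 7.21% in Tconv WT without Tconv WT 3. The 4 Gs-coupled receptors together held 85.3% ± 13.6 in Treg KO, 86.2% ± 13.96 in Treg WT, 64.3% ± 8.31 in Tconv KO and 83.2% ± 8.48 in Tconv WT. The 2 Gq-coupled receptors held 14.5% ± 13.3, 13.8% ± 13.96, 34.9% ± 8.23 and 16.8% ± 8.60 in the same groups. These shares are descriptions and were not tested.

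**Figure D4:**
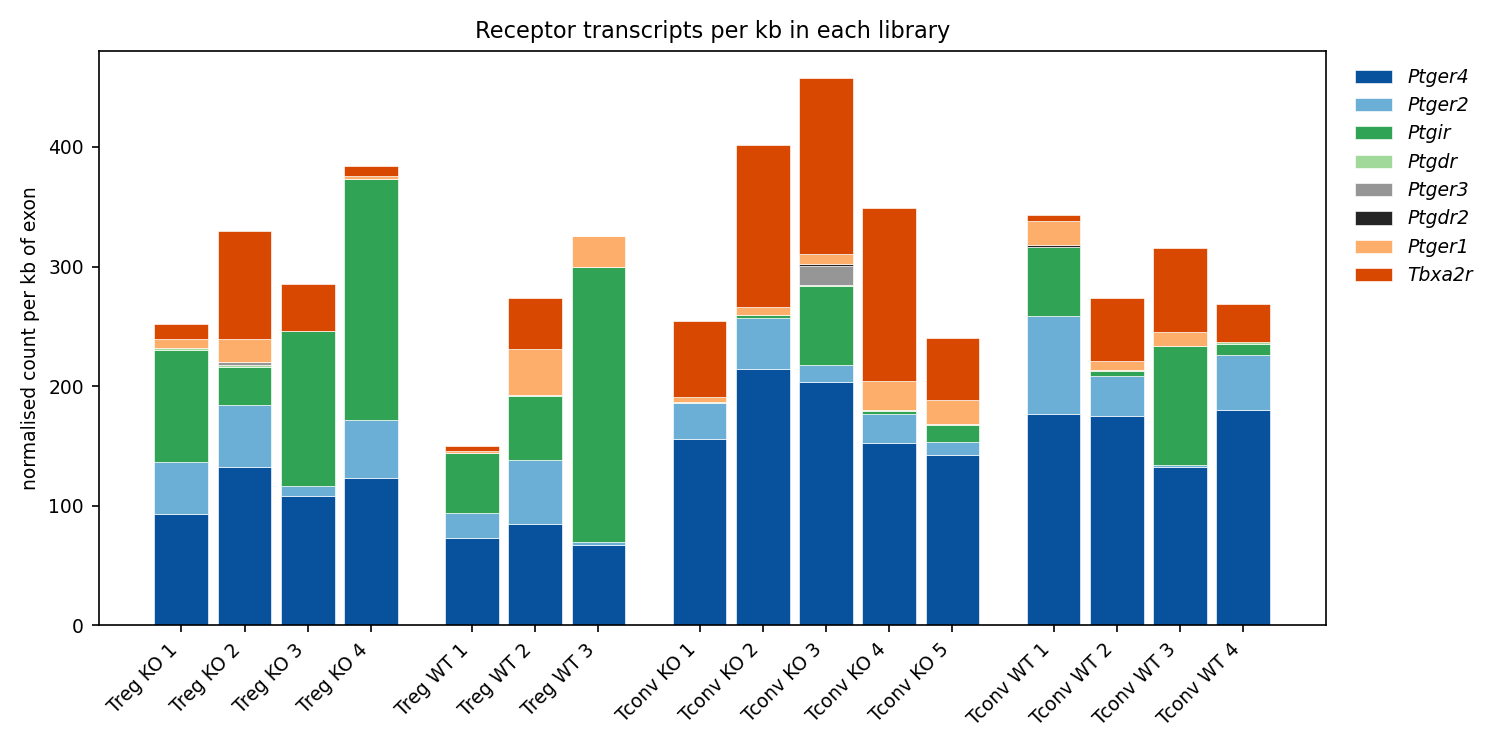
Stacked normalised count per kb of merged exon of the 8 receptors in each library. Blue shades are Ptger4 and Ptger2, green shades Ptgir and Ptgdr, grey and black the Gi-coupled receptors, and orange shades the Gq-coupled ones. Green (Ptgir) runs from 31.8 to 229.6 per kb in the Treg bars and, among the Tconv bars, is tall in Tconv KO 3, Tconv WT 3 and Tconv WT 1; dark orange (Tbxa2r) has its tallest segments in Tconv KO.

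Around the receptors, 8 lists of pathway genes were counted. No tested gene of any of them passed by limma or by voom in Treg KO against Treg WT, in Tconv KO against Tconv WT or in the difference of both effects. Over all tested genes, 6.22% had an unadjusted p under 0.05 in Treg KO against Treg WT and 5.45% in Tconv KO against Tconv WT. At an unadjusted p under 0.05 stood 0 of 14 tested genes of prostanoid synthesis and removal in both comparisons with the deletion. Hpgd itself is 1 of the 18 genes on that list, but it did not reach the filter and was not tested. Among the 7 tested adenylyl cyclases, which make cyclic AMP, 1 had an unadjusted p under 0.05 in Treg KO against Treg WT: Adcy4, at 37.1 ± 20.2 in Treg KO and 4.72 ± 1.65 in Treg WT (log2 difference 2.55, adjusted p 0.741 by limma). Of the 14 cyclic AMP response genes, 1 did so in Treg KO against Treg WT: Pde7a, a phosphodiesterase that degrades cyclic AMP, at 111 ± 17.4 in Treg KO and 64.8 ± 48.3 in Treg WT (1.22, adjusted p 0.741). The median log2 difference of the 14 was 0.17, beside 0.08 over all tested genes. Of the 13 tested cyclic AMP effectors, 1 did so in Tconv KO against Tconv WT: Crem, a cyclic AMP responsive transcription factor, at 2945 ± 879 in Tconv KO and 4949 ± 1830 in Tconv WT (-0.74, adjusted p 0.858). There so did 2 of 12 G protein alpha subunits, Gnal (0.68) and Gna15 (-0.52), without overlap of groups (1.67% of tested genes). The same held for 2 of 9 other Gs-coupled receptors (Gpr65 -0.67, Adora2a -0.58), Adcy3, Per1 and the type 2 gene Ccr8. For the difference of effects the effector Crtc1 did so (-1.72), where 5.22% of tested genes did. All these had an adjusted p of 0.858 or more by limma.

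Between cell types, genes of the cyclic AMP lists passed in both directions. Of 14 cyclic AMP response genes, 5 were higher and 4 lower in Treg KO than in Tconv KO, and 3 higher and 1 lower in Treg WT than in Tconv WT. Pde7a fell to 111 ± 17.4 in Treg KO, against 1513 ± 365 in Tconv KO (log2 difference -3.74, adjusted p 1.92e-05 by limma), and to 64.8 ± 48.3 in Treg WT, against 1290 ± 446 in Tconv WT (-4.70, adjusted p 1.13e-05). Dusp1, a phosphatase of MAP kinases, was higher in Treg in both genotypes (1.43 in deleted and 1.12 in wild-type mice, adjusted p 7.85e-05 and 0.00542), as was the kinase Sik1 (1.02 and 1.00, adjusted p 0.00322 and 0.0163). Over all tested genes 6.81% passed in deleted and 4.18% in wild-type mice. The median log2 difference of the list in the limma model was 0.74 in deleted and 0.31 in wild-type mice, beside 0.04 and -0.0037 over all tested genes. Voom called 7 genes of the list in deleted mice, where it called 7.17% of tested genes, and 3 in wild-type mice, where it called 2.01%. Genes of this list also respond to T cell activation, so it does not read cyclic AMP alone. Crem was higher in Treg KO, at 9184 ± 2489, than in Tconv KO (log2 difference 1.66, adjusted p 0.000270), and so was Crtc3, a coactivator of the same factors (0.81, adjusted p 0.0227); these were 2 of 13 tested effectors, and none passed in wild-type mice, where 5 had an unadjusted p under 0.05.

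Among 12 tested G protein alpha subunits, Gnaq, the partner of Ptger1 and Tbxa2r, was higher in Treg in both genotypes. It stood at 727 ± 138 in Treg KO and 133 ± 71.0 in Tconv KO (log2 difference 2.63, adjusted p 0.000420 by limma), and at 754 ± 275 in Treg WT and 222 ± 115 in Tconv WT (1.83, adjusted p 0.0326). Gna15, of the same family, was higher in Treg KO than in Tconv KO (0.92, adjusted p 0.0172). Voom called 2 subunits in deleted and 0 in wild-type mice. Gnas, which encodes Gs, averaged 1972 ± 500.2 in Treg KO, 1996 ± 70.1 in Treg WT, 2040.4 ± 434 in Tconv KO and 2148 ± 375 in Tconv WT, and was not among the subunits that passed.

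Over all tested genes, 18.7% had an unadjusted p under 0.05, 6.81% passed and 10.7% had groups without overlap between cell types in deleted mice, and 16.3%, 4.18% and 12% in wild-type mice. No tested gene of prostanoid synthesis and removal passed between cell types by limma, with 3 of 14 at an unadjusted p under 0.05 in each genotype and 1 called by voom in deleted mice. Zadh2, a reductase of keto-prostaglandins, had values of 107 ± 38.1 in Treg KO and 227 ± 26.1 in Tconv KO (log2 difference -1.16, adjusted p 0.0790 by limma), and 79.1 ± 34.9 in Treg WT and 216 ± 46.3 in Tconv WT (-1.53, adjusted p 0.0532), with no overlap of groups. Hpgds had 161 ± 39.0 in Treg KO and 32.9 ± 17.3 in Tconv KO (2.42, adjusted p 0.103). Of 9 other Gs-coupled receptors none passed by limma or voom, with 3 at an unadjusted p under 0.05 in deleted and 2 in wild-type mice. Among them Hrh2, a histamine receptor, had values of 54.9 ± 48.0 in Treg WT and 226 ± 48.7 in Tconv WT (-3.22, adjusted p 0.0664). Of 7 tested adenylyl cyclases and 7 tested receptor kinases and arrestins none passed by limma or voom. Of these, 2 cyclases and 1 kinase or arrestin in deleted mice, and 1 cyclase and no kinase or arrestin in wild-type mice, had an unadjusted p under 0.05. Of 12 type 2 genes, 6 were higher and none lower in Treg KO than in Tconv KO, with Gata3 (2.76, adjusted p 7.79e-06), Areg (4.77, adjusted p 0.000466) and Il1rl1 (5.69, adjusted p 0.00168) first, and 4 were higher and 1 lower in Treg WT than in Tconv WT. Their median log2 difference was 2.10 in deleted and 1.28 in wild-type mice, and voom called 6 and 2 of them. In Treg KO against Treg WT none of the 12 had an unadjusted p under 0.05, the smallest being that of Il5, at 156 ± 31.1 in Treg KO and 34.7 ± 34.2 in Treg WT (log2 difference 3.19, adjusted p 0.840 by limma).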

How the data were processed

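The deposited signal is a normalised count per gene in 16 libraries: as the values show, read counts divided by a size factor, plus 1. Libraries were made from 10 ng of RNA with SMART-seq2 and sequenced on a NextSeq 500, per the labels' protocols. CASAVA 1.8, kallisto 0.44, Partek 6.6, R 3.3.1, DESeq2 and mm10 are named without roles, per the submitters' processing notes; no source used here gives the annotation or strand setting. Read numbers were recovered from the steps between low values (100% whole within 0.1 of a read); floors cover counting error only. One limma 3.58.1 model (R 4.3.3, mean-variance trend) over 4 groups gave 2-sided p-values, adjusted by Benjamini-Hochberg over 14319 genes; it was tested on simulated data. The test for counts that had been planned as an alternative was not run, since the values are not counts; limma's voom on recovered reads, chosen after seeing the data, replaced it. The members, gene lists and tests were chosen with earlier results of these data known. Named were all 8 receptors, Ptgfr, Hpgd and Foxp3, the 3 most and 1 least correlated genes of each receptor, and leading markers. List genes were named from up to 3 passing genes of smallest adjusted p per list and comparison (2 of smallest p where none passed). Not all of these are printed. Gnas, and the type 2 genes and Hpgds set beside Ptgir, were named after their values were seen. Exon lengths and overlaps are from GENCODE M21. The exon overlap of Ptger1 with other genes is not reported here.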

Additional observations from a re-analysis of the deposited data

Results flagged for a closer look

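Of the 8 receptors in the 3 groups of 4 or 5 libraries, 6 values stood apart from the rest of their group by Dixon's test at 95%. Chance gives this in about 1 in 20 groups, but where the rest of a group has no reads any value above 0 reads stands apart by construction, which holds for Ptger3 in Treg KO 2 and both Ptgdr2 values. Ptger2 was 44.9 in Treg KO 3, against 225 to 271 in the other Treg KO libraries. Ptger3 was 11.8 in Treg KO 2 and 91.5 in Tconv KO 3, where each other library of both groups had at most 1 read. Ptger4 was 884 in Tconv WT 3, the library with red cell transcripts, against 1162 to 1197 in the other Tconv WT libraries. Ptgdr2 was 4.55 in Tconv KO 3 and 4.10 in Tconv WT 1, and without reads in the other libraries of both groups.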

How the results depend on the processing

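Alternatives were another pseudocount, no filter or a filter at 50, quantile normalization, fits of the compared groups only, a replicate block, each library left out and, chosen after seeing the data, voom and a fit without Tconv KO 3, Tconv WT 1 and Tconv WT 3. Of 703 recomputed differences of single receptors, 661 kept direction and side of the threshold. Of 119 recomputed counts of receptors called, 112 did not change. The number of receptors called ran from 1 to 2 for Treg WT against Tconv WT (2 without Treg WT 2) and from 0 to 1 for Treg KO against Tconv KO over the libraries left out; voom called 1 there, Ptger4 in place of Ptgir. Ptger2 in Tconv KO against Tconv WT turned to -0.13 under quantile normalization and -0.69 without the 3 libraries, and Ptger4 there turned to -0.11 without them. Signs also turned with single libraries left out, none of them in a called result. In Treg KO against Treg WT the log2 differences ran from -0.094 to 1.95 for Ptger2, -0.23 to 0.86 for Ptgir and -0.22 to 0.46 for Ptgdr. In Tconv KO against Tconv WT they ran from -0.18 to 1.77 for Ptger1, -1.19 to 0.78 for Ptger2, -0.047 to 0.12 for Ptger4, -0.63 to 0.076 for Ptgdr and -0.34 to 0.29 for Ptgdr2. For the difference of effects they ran from -0.21 to 2.24 for Ptger2 and -0.93 to 1.76 for Tbxa2r. For Treg WT against Tconv WT they ran from -1.74 to 0.71 for Ptger2, and for Treg KO against Tconv KO from -1.20 to 0.55 for Ptger3 and -0.31 to 0.37 for Ptgdr. The cause was not tested. Same-numbered libraries of different groups deviated together weakly or not at all (r from -0.04 to 0.08). Between Treg WT and Tconv WT, r was 0.024 to 0.079 for same and -0.073 to 0.048 for other numbers. Between Treg KO and Tconv KO, it was 0.023 to 0.053 for same and -0.041 to 0.024 for other numbers. A weak pairing within a genotype is thus not excluded, but no label gives one, and the main model used none. With the replicate block 0, 0, 0, 567 and 816 genes passed in the 5 comparisons, against 3, 0, 0, 599 and 975 without it. No receptor call changed with the block (Ptger4 -1.14 with an adjusted p of 0.00735 by limma, Ptgir 4.48 with 0.00747). Over all genes and alternatives, calls ran from 0 to 17 for Treg KO against Treg WT, 0 to 2 for the difference of effects, 161 to 664 for Treg WT against Tconv WT and 651 to 1140 for Treg KO against Tconv KO. Of the type 2 genes, voom called 2 in wild-type mice, against 5 in the main model. Depth limits Ptger3, Ptgdr and Ptgdr2, where a few reads decide each value.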
